A study of Mus musculus with 2 samples.

Results

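The Shh to Lmbr1 limb enhancer domain was taken as the window chr5:28200000-29600000 of the mouse mm10 build, which covers Cnpy1, Rbm33, Shh, Rnf32, Lmbr1, Nom1, Mnx1 and the start of Ube3c. Its members were all peaks of the deposited optimal list whose summit lay in that window, and there were 14 of the 49970 peaks in the list. The list comes from CTCF ChIP-seq (chromatin immunoprecipitation and sequencing) of embryonic limb of the mouse strain B6NCrl at 14.5 days. There was a single group with 2 libraries, replicate 1 and replicate 2, and no treatment or mutant. Per the labels, both libraries came from pulverised limbs of several dissections, with male and female embryos pooled, so the spread between them may be technical and no cell type of the limb can be told apart from another. The files hold no expression values, so the tissue label could not be checked against marker genes.

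CTCF is a zinc finger protein that binds a long, asymmetric DNA motif and, with cohesin, anchors chromatin loops. Loops form mostly between sites whose motifs point towards each other, which is why the strand of each motif is given here. Shh encodes the secreted ligand Sonic hedgehog, which patterns the limb from the zone of polarising activity at its posterior margin. Its limb enhancer, the ZRS (zone of polarising activity regulatory sequence), lies far away in an intron of Lmbr1, a gene known mainly for carrying it, and a long stretch without coding genes separates the genes.

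Of the 14 peaks, 12 had a CTCF motif, beside 81.1% of all optimal peaks on the main chromosomes. A motif here is a match to a 20-base matrix trained on peaks of other chromosomes, with its centre within 50 bp of the summit. Forward motifs point from Shh towards Lmbr1, in the direction of rising coordinates, and reverse motifs point the other way. There were 4 forward and 8 reverse motifs, while 49.7% of the motifs under all optimal peaks were forward. Sequences follow for all motifs of the window except the reverse ones in Rbm33 and upstream of Mnx1. Each is read 5′ to 3′ on the strand of its motif from the GRCm38.p6 assembly, with the motif in capitals. The consensus of the matrix was TGGCCACCAGGGGGCGCCAG.

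Upstream of Rbm33, forward, chr5:28294173-28294216: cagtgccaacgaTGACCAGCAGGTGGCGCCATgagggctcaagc
Between Rbm33 and Shh, forward, chr5:28451356-28451399: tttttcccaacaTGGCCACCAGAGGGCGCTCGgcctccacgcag
Upstream of Shh, forward, chr5:28469646-28469689: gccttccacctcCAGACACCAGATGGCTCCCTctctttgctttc
Upstream of Shh, reverse, chr5:28469932-28469975: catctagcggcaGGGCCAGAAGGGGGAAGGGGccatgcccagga
Lone site of the desert, reverse, chr5:29036826-29036869: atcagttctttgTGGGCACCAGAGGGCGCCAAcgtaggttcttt
Lmbr1 intron 9, reverse, chr5:29274924-29274967: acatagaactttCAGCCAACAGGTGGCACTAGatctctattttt
Lmbr1 intron 5, reverse, chr5:29293380-29293423: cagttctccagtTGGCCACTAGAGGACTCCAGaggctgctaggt
Lmbr1 intron 4, reverse, chr5:29336021-29336064: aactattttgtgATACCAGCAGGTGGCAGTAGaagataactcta
Upstream of Lmbr1, forward, chr5:29389548-29389591: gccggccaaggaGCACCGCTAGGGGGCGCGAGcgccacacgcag

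The site between Rbm33 and Shh and the lone site of the desert each matched the consensus at 17 of 20 bases. The forward site upstream of Rbm33 and the Lmbr1 intron 5 site each matched at 16, and both sites upstream of Shh and the Lmbr1 intron 4 site at 12. A motif score in bits sums the matrix over the 20 bases. The 2 strongest motifs of the window were those upstream of Rbm33, with 25.5 bits, and between Rbm33 and Shh, with 25.9 bits, higher than 99.4% and 99.7% of the motifs under all optimal peaks.

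The median signal of the 14 peaks was 67.1, and that of the whole optimal list was 58.4. Signal is the authors' value for a peak in the pooled list unless a replicate is named, on a scale that the labels and files do not define. Values of replicates come from their own lists and are lower, with medians of 31.2 and 29.6 over the optimal peaks. Signals over 200 were found at 4 of the 14 peaks and at 15.1% of the whole list. Signals under 60 were found at 7 of 14, beside 50.9% of the whole list.

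**Figure D1:**
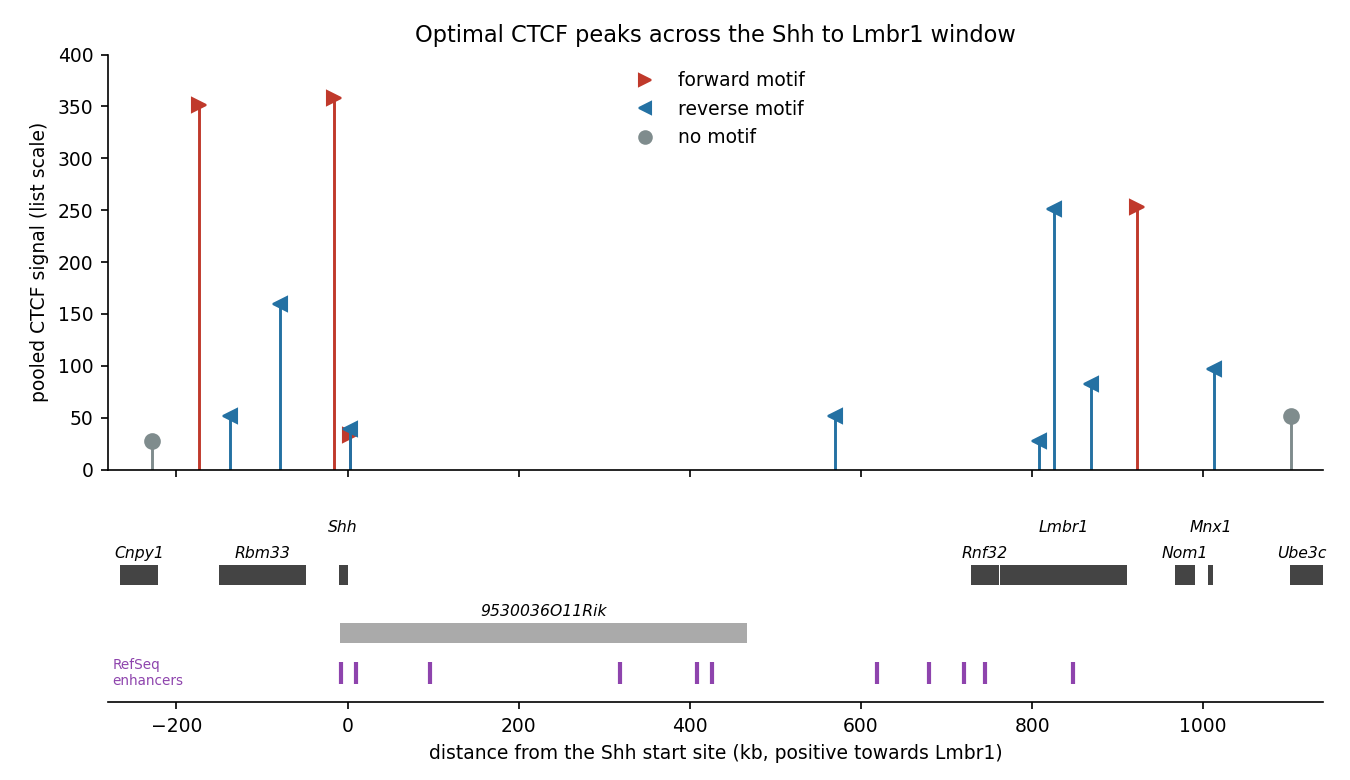
Pooled CTCF signal (vertical axis, scale of the list) of the 14 optimal peaks by distance from the Shh start site in kb, with triangles for the strand of the motif, genes as bars and RefSeq enhancers as ticks. The 2 strongest sites (350.9 and 357.7), both forward, lie on the Shh side, and another strong forward site (253.1) lies upstream of Lmbr1. Of the 12 motifs, 8 are reverse, among them all 3 in Lmbr1.

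The edge on the Shh side held 7 peaks, with 3 forward and 3 reverse motifs. Its strongest member lay between the end of Rbm33 and the end of Shh, at summit 28451382 and 5.43 kb past the Shh gene. That site had a signal of 357.7, rank 707 of the list, with 187.6 in replicate 1 and 172.2 in replicate 2 (mean 179.9 ± 10.9, SD, n = 2). Nearly as strong was the site at 28294190, in intergenic sequence 22931 bp upstream of Rbm33, which encodes an RNA-binding motif protein. It had 350.9 (rank 804), with 166.6 and 183.9 in the replicates (175.3 ± 12.2, SD, n = 2). Their order differed between the replicates, so these values give no order between them. Both motifs were forward, towards the Shh body and the desert.

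Between these sites, Rbm33 held 2 peaks with reverse motifs. In intron 12, the summit at 28388396 had 159.6, with 80.2 and 78.1 in the replicates. In intron 1, the summit at 28329622 had 51.4, with 24.1 and 26.3. The outermost peak on this side, at 28238441 in intron 1 of Cnpy1, had 27.9, with 16.2 and 12.98. It was the weakest peak of this edge and had no motif. Cnpy1 encodes a Canopy family protein, known from zebrafish as a regulator of fibroblast growth factor signalling.

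Shh had no optimal peak within 1 kb of its start site at 28467256, and its body held none. Upstream of the gene, 2 weak peaks lay 319 bp apart, at 2412 and 2731 bp from the start. The nearer one, at 28469668, had 33.0 and a forward motif of 11.9 bits. Replicate 2 had a summit there with 20.5, while the nearest summit of replicate 1 was 324 bp away. The farther one, at 28469987, had 38.8 and a reverse motif of 14.4 bits, with 24.1 in replicate 1 and 14.3 in replicate 2 (19.2 ± 6.98, SD, n = 2). Replicate 2 thus listed both summits, with the nearer one higher, and replicate 1 listed the farther one alone. The same peak also held a forward match of 13.3 bits, close to the reverse one, and nearer the summit. By the higher score of each peak, the motifs upstream of Shh point towards each other across the short gap.

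After the last of these summits came the empty desert. The next optimal peak was 566.9 kb away, at 29036845. Of the 49939 distances between neighbouring optimal peaks on the main chromosomes, 99.06% were shorter and this one ranked 470. On chromosome 5, 25 of 3510 distances were as long. The following interval, from 29036845 to the first peak in Lmbr1, measured 238.1 kb and was longer than 96.5% of all distances. These 2 of the 13 distances in the window were over 100 kb, beside 11.3% of all distances, and together they made up 57.5% of the 1400 kb. The median distance was 55.7 kb in the window and 18.1 kb overall.

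The lone peak between the 2 intervals lay 569.6 kb from the Shh start and 159147 bp from the nearest start of Rnf32, which encodes a RING finger protein. Its signal was 51.2, with 27.8 in replicate 1 and 24.0 in replicate 2 (25.9 ± 2.66, SD, n = 2). It was thus found at a like level in both libraries and was weaker than the median optimal peak. Its reverse motif scored 19.7 bits, above 82.6% of the motifs under optimal peaks, while its signal exceeded that of 45.9% of the peaks.

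**Figure D2:**
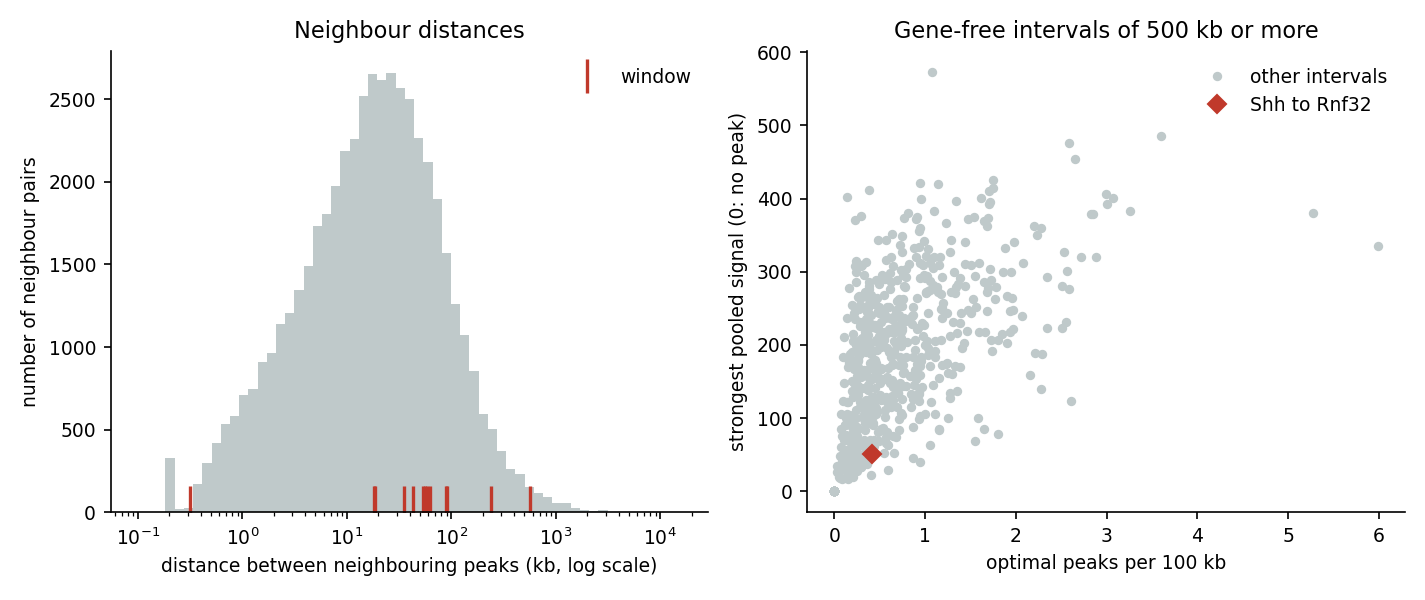
Left, distances in kb (log scale) between neighbouring optimal peaks, with the 13 of the window as red ticks. Right, strongest signal against peaks per 100 kb for 688 coding-gene-free intervals, where the Shh to Rnf32 interval (red) has 0.412 peaks per 100 kb and a strongest signal of 51.2.

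Set beside other long stretches without a coding gene, the desert had a number of peaks close to the median. The Shh to Rnf32 interval, chr5:28467257-29195991, held 3 peaks in 728.7 kb, or 0.412 per 100 kb. Of 688 such intervals of at least 500 kb, 302 (43.9%) had fewer per 100 kb, and the median was 0.484. The 688 include 82 without a peak, many of them on chromosome Y, which raise that share and lower that median. Values without chromosome Y were not computed. The longest peak-free stretch of the Shh to Rnf32 interval, of 566.9 kb, ranked 275 of the 688, with a median of 484.1 kb. As a share of its length it was 77.8%, where the median was 51.1%. Its strongest peak was low: among the 606 intervals with a peak, 55 (9.08%) had a weaker strongest peak and the median was 191.7. Among the 58 intervals with 3 peaks, 5 had a weaker strongest peak, and the median was 113.2. A long non-coding antisense gene, 9530036O11Rik, spans 475.7 kb of the region from inside Shh outwards, so the stretch is free of coding genes but not of annotated transcripts.

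The full lists of each library, which hold 300000 summits each and reach down to very weak ones, were read inside the desert as well. The longest interval held 45 summits of replicate 1 and 38 of replicate 2, or 7.94 and 6.70 per 100 kb, beside 11.003 and 11.004 per 100 kb genome-wide. The genome-wide figures include summits at optimal peaks (1.83 optimal peaks per 100 kb), which the interval lacks by its definition. Part of the difference is therefore built in. None of the summits in the interval was among the 49970 strongest of its library, which that definition also favours. The strongest in replicate 1 had 7.63 and rank 65300, and the strongest in replicate 2 had 6.96 and rank 67636. Within 100 bp, 4 summits of the interval were found in both libraries, and none of those had a motif. The best of them, at 28915658, had 6.36 and 5.41. No such share was computed for summits of like rank elsewhere, so these counts do not set the desert apart.

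The second interval held 13 summits of replicate 1 and 21 of replicate 2. Here the highest was at 29271038 in replicate 2, with 10.3 and rank 48677, near the peaks in Lmbr1. As in the longer interval, 4 summits were shared and none had a motif, again with no share for like summits elsewhere.

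**Figure D3:**
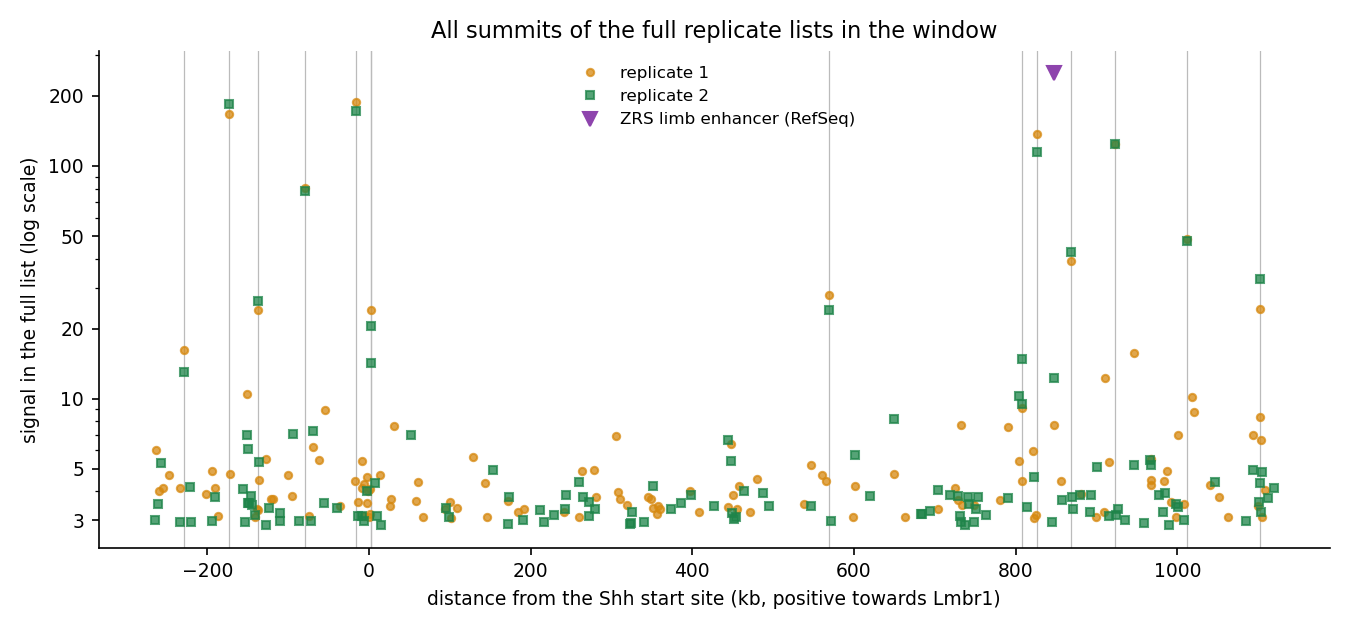
Signal (log scale) of all summits of the full replicate lists by distance from the Shh start site in kb, with grey lines at optimal peaks and a triangle over the ZRS. In the longest interval no summit exceeds 7.63, while the lone optimal peak has 27.8 and 24.0.

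The sequence of the desert was searched for matches to the matrix with at least 14.9 bits, the median score under optimal peaks, on both strands. The longest interval held 3, all reverse, or 0.529 per 100 kb, where chromosome 5 held 2.05 per 100 kb and 51.0% of its matches lay under an optimal peak. The interval lacks optimal peaks by its definition, so matches under such peaks enter the chromosome 5 rate alone and the 2 rates are not alike. The best match of the interval, centred at 28519264, scored 20.8 bits, more than the lone bound site of the desert. Replicate 2 had its strongest summit of the interval 19 bp from it, with 6.96, and the pooled list had one with 10.5 at rank 86373, while the nearest summit of replicate 1 was 6590 bp away. The other matches, at 28700249 and 29003080, scored 16.6 and 16.5 bits and had no summit of any of these lists within 100 bp. In the whole window, 7 of 13 matches lay under an optimal peak, and 3 of the other 6 lay in repeats. No share in repeats was computed for matches elsewhere. Of the 6, only the match centred at 29560855 had a summit of both libraries within 100 bp, with 6.99 and 4.92.

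The edge on the Lmbr1 side began with that lone peak and held 7 peaks, with 1 forward and 5 reverse motifs. Lmbr1 itself held 3 optimal peaks, in introns 9, 5 and 4, and all 3 motifs were reverse, pointing towards Shh. The strongest, at 29293407 in intron 5, had 250.8 (rank 4285), with 136.5 and 115.4 in the replicates (125.9 ± 15.0, SD, n = 2). Its motif scored 14.4 bits, above only 46.8% of motifs under optimal peaks, although its signal exceeded that of 91.4% of peaks. The intron 4 summit at 29336041 had the better motif, with 20.2 bits, and a lower signal of 82.7, with 39.2 and 42.6. Signal and motif score therefore ranked the intron 5 and intron 4 sites in opposite order.

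The intron 9 summit at 29274962 was among the weakest of the window, with 27.7, close to the 27.9 of the Cnpy1 peak. Replicate 2 had 14.8 there, and the nearest summit of replicate 1 lay 125 bp away with 9.10. Like the nearer Shh site, it was absent from the conservative list, which held the other 12 of the 14, beside 87.6% of all optimal peaks. The same 12 were among the strongest 49970 of both libraries, beside 81.2% overall.

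Past the start of Lmbr1, the summit at 29389572 had 253.1 (rank 4161), with 124.0 and 124.9 in the replicates (124.4 ± 0.63, SD, n = 2). It lay in exon 2 of the lincRNA 4632411P08Rik, 11182 bp upstream of the first Lmbr1 start site, and its forward motif pointed away from Shh. Its replicate mean differed from that of the strongest site in Lmbr1 by less than the SD of the latter, though by more than its own. Their motifs were of opposite strand and point away from each other. Farther out, Mnx1, a homeobox gene known for motor neuron identity, had a summit 988 bp upstream of its start with 97.0, and 48.3 and 47.5 in the replicates. Its reverse motif scored 11.5 bits, the lowest of the 12. Nom1, a nucleolar protein gene, held no peak, and its first start site was 44794 bp from the nearest. The last peak, at 29569638 in intron 1 of the ubiquitin ligase gene Ube3c, had 51.3, with 24.2 and 32.7, and no motif.

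The strongest forward site near Shh and the strongest reverse site in Lmbr1 lay 842.0 kb apart, with the Shh body, the desert and Rnf32 between them. The ChIP-seq lists hold no contacts, so nothing here measures a loop between them. Over neighbouring motif-bearing peaks, 3 of 11 pairs were convergent, 2 divergent and 6 tandem. The 4 pairs from 28469987 to 29336041 were tandem, a run of 5 reverse motifs from Shh into Lmbr1. The first of these is the peak upstream of Shh that also held a forward match, so the run and the count of pairs rest on taking the higher score there. No share over pairs or runs elsewhere was computed, so neither sets the window apart.

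RefSeq lists 11 functional elements in the window, and none contained an optimal summit. They are 408 to 1800 bp long and the window has 1 optimal peak per 100 kb, so by length alone they would seldom hold one. No share over elements elsewhere was computed. The longest interval held 5 of the elements, the floor plate enhancer 1, the lung-gut enhancer and 3 brain enhancers of Shh. The second interval held 4 conserved sequences. A further brain enhancer lies inside Shh. None of the 9 elements in the intervals contained a summit of replicate 2, and 1 contained one of replicate 1, with 3.49 at rank 228225.

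The ZRS, at chr5:29314497-29315862 in intron 5 of Lmbr1 and 847.9 kb from the Shh start, lay between the strong intron 5 site and the intron 4 site. The first was 21.1 kb and the second 20.2 kb from its boundaries. The enhancer held no optimal peak but did hold a weak summit in each full list. Replicate 1 had 7.73 at rank 64432, replicate 2 had 12.3 at rank 42926, and the pooled list had 20.5 at rank 49006. The level was higher in replicate 2, and the rank was inside the length of the optimal list in replicate 2 and in the pooled list but not in replicate 1. Among the 11 elements it was the only one with a summit in both libraries.

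**Figure D4:**
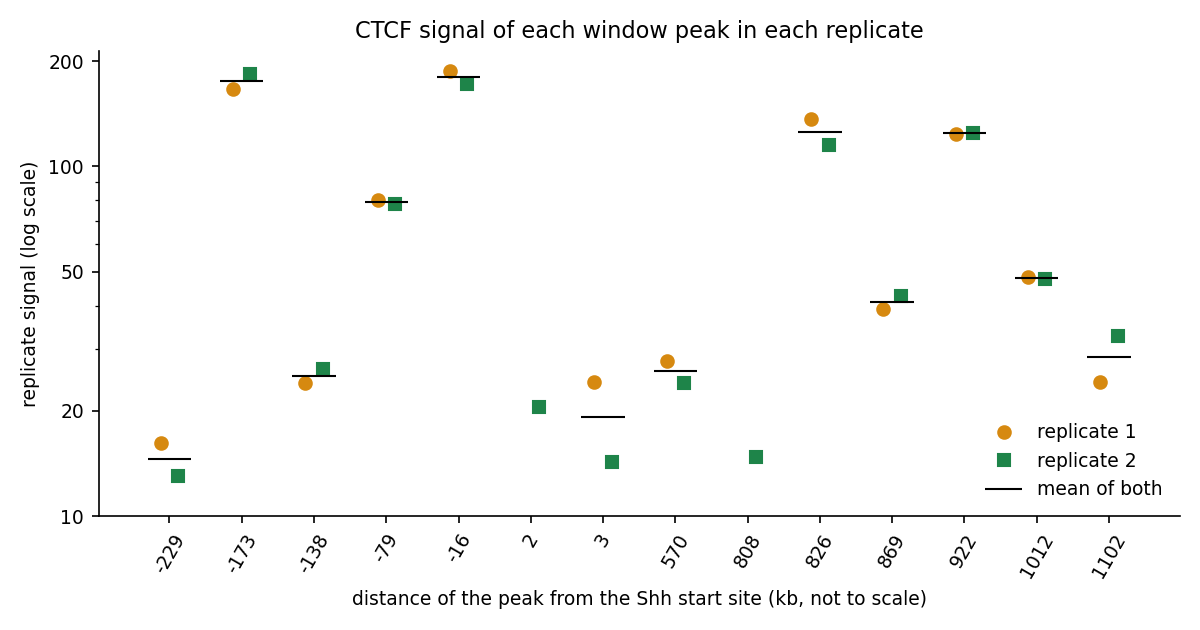
Signal (log scale) of each of the 14 peaks in replicate 1 (circles) and replicate 2 (squares), ordered along the chromosome, with the mean as a line. Replicate values of the 4 sites with a pooled signal over 200 run from 115.4 (Lmbr1 intron 5, replicate 2) to 187.6 (between Rbm33 and Shh, replicate 1). A further 2 peaks have a value in replicate 2 alone.

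The replicates gave like values for most members. A summit within 100 bp in both libraries was found for 12 of 14 peaks, where 97.5% of all optimal peaks had one. Over those 12, the log2 ratio of replicate 1 to replicate 2, each scaled by its median over the optimal peaks, ran from -0.51 at the Ube3c peak to 0.68 at the farther Shh peak, with an SD of 0.30. The SD over all optimal peaks was 0.50. Beside the 1000 peaks nearest in rank, 8 of 12 ratios were within 1 SD, and the largest in those terms was that of the site upstream of Rbm33, at 1.92 SD.

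**Figure D5:**
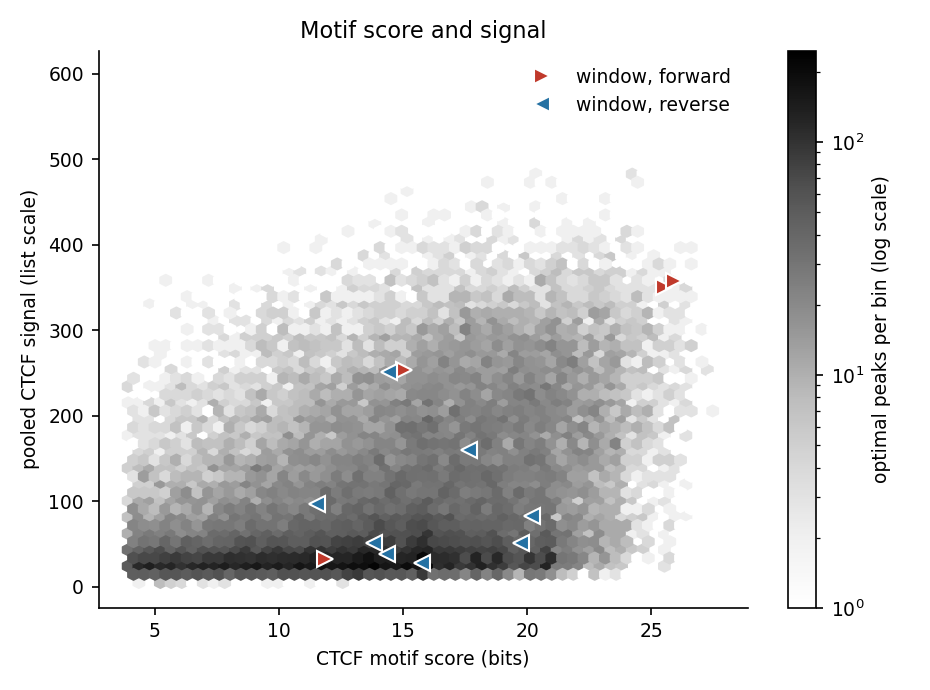
Pooled signal against CTCF motif score in bits for all 40523 optimal peaks with a motif (grey, darker for more peaks) and for the 12 of the window (triangles). The 2 strong forward sites on the Shh side lie at the upper right, with 25.5 and 25.9 bits, and the strong Lmbr1 intron 5 site at 14.4 bits.

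Across all 40523 optimal peaks with a motif, score and signal had a Spearman correlation of 0.36, and across the 12 of the window it was 0.48. The points share the same libraries and are neighbours on the chromosome, so this is a description.

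Promoter peaks were found at 2 of the 6 member genes, Cnpy1 and Mnx1, beside 33.4% of 21938 protein-coding genes. The Mnx1 summit lay just inside the 1 kb limit, at 988 bp, and the strong Lmbr1 intron 5 summit just outside it, 1193 bp from an alternative Lmbr1 start. The Cnpy1 summit was 568 bp from an alternative start site and 7365 bp from the first. No optimal summit lay within 1 kb of a start site of Shh, Rbm33, Lmbr1 or Nom1. Among the strongest 49970 summits of replicate 1, weak ones stood 45 bp from a start of Lmbr1, with 12.3, and 291 bp from one of Rbm33, with 10.5. The pathway that Shh drives was described by 24 further genes, of which 13 had a promoter peak. Among effectors, 6 of 9 had one, led by the transcription factor genes Gli1 with 287.1 and Gli2 with 252.7, and by Sufu, the cytoplasmic inhibitor of Gli proteins, with 219.5 (119.1 and 100.7 in the replicates). The ubiquitin ligase adaptor gene Spop had 146.1, and the kinase genes Prkaca and Csnk1a1 had 33.1 and 32.1. The effector genes Gli3, Kif7 and Gsk3b had no promoter peak. Of the receptors and co-receptors, 5 of 8 had one, including the co-receptor gene Gas1 with 81.4, the glypican gene Gpc3 with 47.0, the decoy receptor gene Hhip with 41.1, and the receptor gene Ptch1 with 22.7. Smo, the signal transducer, had none. Among the 8 ligand and release genes, Hhat, which palmitoylates the ligand, had 251.4 (137.5 and 114.3), Scube3 had 22.7, and Shh, Ihh and Dhh had none. The Hhat summit was 964 bp from an alternative start site inside the gene, and far from both gene ends. The Ptch1 and Prkaca summits were likewise near alternative start sites inside their genes, at 745 and 604 bp.

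The other intervals described here, each between a developmental gene and a neighbouring gene, had more peaks per 100 kb. From the Shh start to the Lmbr1 start there were 6 peaks in 911.1 kb, or 0.659 per 100 kb. The Sox9 to Kcnj2 interval had 1.11 per 100 kb, Pax3 to Epha4 had 1.47 and Grem1 to Fmn1 had 1.62. The longest distances between neighbouring peaks inside them were 251.2, 204.8 and 112.6 kb, beside 566.9 kb for Shh to Lmbr1. Counted up to the ends of the coding-gene-free part, the longest stretch without a peak between Kcnj2 and Sox9 was 369.1 kb. These are single intervals and no test of the difference was made. Past the window, the next optimal peaks lay 76.8 kb before it, with 81.7, and 87.9 kb after it, with 173.0, so both limits of the window fell in peak-free stretches.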

How the data were processed

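CTCF ChIP-seq of 2 libraries was analysed from 5 deposited narrowPeak lists on mm10. Per the files deposited with each library, replicate and pooled lists were made from alignments, and the optimal and conservative lists from those lists. The sources used here name no aligner, peak caller or threshold, and list a possible control without saying how it was used. The authors' signal value, deposited per peak, was used as it stands. The deposited −log10 q-value is capped and served no ranking here. The deposited IDR score (irreproducible discovery rate) entered no result. Depth is unknown, because the lists hold no read counts.

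The window, genes and lists were chosen with earlier results of these data known. All 14 peaks and the 6 member genes are named, with Hedgehog genes named where they had a promoter peak and a few others chosen after their values were seen. 1 Hedgehog gene that the rule would name is not reported here. Replicate values are the nearest summit within 100 bp. Promoters reach 1 kb from any GENCODE M21 start site. The motif matrix came from the strongest 1000 peaks of even-numbered autosomes in 10 rounds, and hits had to reach 3.92 bits, a score met by 5% of sequence windows at a distance of 1 kb from the peaks. Elements are from the RefSeq annotation of GRCm38.p6, of which mm10 is the browser name. Peaks were read with pandas 2.3.3 and sequence with pysam 0.24.0. With 1 group there was no test, and ranks and shares are descriptions. Matching and motif steps were tested on simulated data. Alternatives were the peak list, leaving out a replicate, the matching distance, the motif settings and the promoter width. Those on gene-free intervals were chosen after seeing the data.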

Additional observations from a re-analysis of the deposited data

How the results depend on the processing

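With the strongest 50% of the optimal list, 7 peaks were left in the window and the longest interval grew to 842.0 kb, since the lone desert site, both sites upstream of Shh and the Lmbr1 intron 9 site dropped out. The conservative list gave 12 peaks and the strongest of the pooled list 16, and the longest interval was 566.9 kb in both. Leaving out a replicate gave 15 to 16 peaks and a longest interval of 566.85 to 566.86 kb. The motif count stayed at 12 and the forward count at 4 under all 3 motif settings, while the share of all optimal peaks with a motif was 58.6% at the stricter threshold, 75.5% with the wider search and 82.1% with the other matrix. Matching within 200 bp found 13 peaks in both libraries and moved the median replicate signal from 44.4 to 40.9. Member genes with a promoter peak numbered 0 within 500 bp and 4 within 5 kb, and 2 to 3 when a replicate was left out. Without replicate 2 these were Cnpy1, Rbm33 and Lmbr1, so Mnx1 was not among them. Replicate 1 did list the Mnx1 summit, with 48.3, but 25 bp farther from the start than the optimal one and past the 1 kb limit. The share of gene-free intervals with fewer peaks per 100 kb was 37.9% for intervals of 300 kb or more, 31.5% with the conservative list, and 31.0% to 44.2% when a replicate was left out. The cause of these moves was not tested. No paired analysis was possible because there was 1 group. Depth is unknown, so no detection limit can be given for weak summits such as that in the ZRS.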
